A study of Homo sapiens with 12 samples.

Results

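The comparison described here was between My5.CRBN cells treated with AGO2 cDNA, named My5.CRBN.AGO2, and un-treated My5.CRBN cells. It took 2 of the 12 arrays of the series and all miRNA assays that each array holds, without any selection on their values. The series asked how the level of AGO2 in multiple myeloma cells bears on the steady-state levels of miRNAs, with and without lenalidomide. My5.LV and My5.CRBN were both made from OCI-My5, a human multiple myeloma cell line, by lentiviral infection. My5.LV carries the vector alone and has little CRBN, and My5.CRBN carries His-tagged CRBN cDNA, has a high level of CRBN and is IMiD-sensitive. CRBN is the substrate recruiter of an E3 ubiquitin ligase and the protein to which lenalidomide binds. For My5.CRBN.AGO2, a second lentivirus brought in human AGO2 (EIF2C2) cDNA with an epitope tag behind the CMV promoter, the cells were selected with puromycin, and RNA was taken 3 days after the treatment. Neither array of this pair received lenalidomide. The un-treated cells are labelled with no overexpression and no knockdown, so the AGO2 cDNA and the infection with selection that went with it cannot be told apart. AGO2 and CRBN mRNA are not among the assays, so the rise of AGO2 itself could not be checked on these arrays.

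AGO2 is the argonaute protein that holds a mature miRNA and lets it find its target mRNAs. A miRNA is cut as a hairpin, of which 1 strand, the guide, is usually kept in argonaute and the other, the passenger, is mostly lost. The guide pairs with targets chiefly through its seed, bases 2 to 8 from the 5′ end. miRNAs bound by argonaute are shielded from decay, and AGO2 is the human argonaute known to cut RNA, which it does in the maturation of miR-451a.

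The readout was the threshold cycle (Ct) of quantitative PCR, which is higher where there is less of an RNA. Each Ct over 35 or undetermined was set to 35, here called the cap, and the mean Ct of 6 small-RNA control wells of the same array was subtracted. Fold changes are given on the log2 scale, as normalized Ct in un-treated My5.CRBN less that in My5.CRBN.AGO2, so that a negative value is a lower level with AGO2 cDNA. There was 1 array for each condition and therefore no replicate check, no p-value and no SD between arrays. As a measure of spread, the log2 fold changes of the 6 control wells had an SD of 0.56 and ran from -0.52 for SNORD68 to 0.80 for SNORD95. SNORD61, SNORD68 and SNORD72 were below 0, and SNORD95, SNORD96A and RNU6-2 were above 0.

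The My5.CRBN.AGO2 array stood apart from the other 11. It had 48 miRNAs at the cap, against 24 on the un-treated My5.CRBN array and 5 to 24 on the other 11 arrays. Its control wells had a mean Ct of 21.9, against 20.8 in un-treated cells and 18.7 to 21.1 on the other arrays. The reverse transcription control wells rose by 1.00 Ct and the positive PCR control wells by 0.84 Ct from un-treated to AGO2 cDNA treated cells, beside 1.07 Ct for the small-RNA control wells. The median Ct of the miRNAs was 28.9 in un-treated and 30.3 in AGO2 cDNA treated cells. The part that this later amplification has in the values below was not tested. It also set what could be counted: a miRNA had to rise by 2.66 Ct to be counted as at least 3 fold lower, and the 76 miRNAs with a Ct over 32.3 in un-treated cells could not do so before they met the cap. A fall of 0.51 Ct was enough to be counted as at least 3 fold higher.

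With AGO2 cDNA, 8 miRNAs had levels at least 3 fold above those of un-treated My5.CRBN cells (2.15% of all assays), and 23 had levels at least 3 fold below them (6.18%). Of the rest, most lay close to no difference, with 272 miRNAs (73.1%) within 2 fold. The median log2 fold change over all miRNAs was -0.11, and 208 miRNAs (55.9%) were below 0. This median lies within the spread of single control wells, which does not measure the uncertainty of a median over all miRNAs. Among the 321 miRNAs under the cap on both arrays the median was -0.19, with 6 higher and 22 lower by at least 3 fold. A further 27 miRNAs were at the cap with AGO2 cDNA alone, 3 were at the cap in un-treated cells alone, and 21 were at the cap on both arrays and have no fold change, though the difference of the control wells gives each of them 1.07. These 21 stay in the median of -0.11 and in the shares of 73.1% and 55.9%, where they count as beyond 2 fold and above 0. The split of higher and lower miRNAs moved with the normalizer: 74.2% of the counted miRNAs were lower with the mean of the 6 control wells, 58.3% with the global mean of miRNAs, which raised every value by 0.24, and 95.3% with the median of the control wells, which lowered every value by 0.45.

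**Figure D1:**
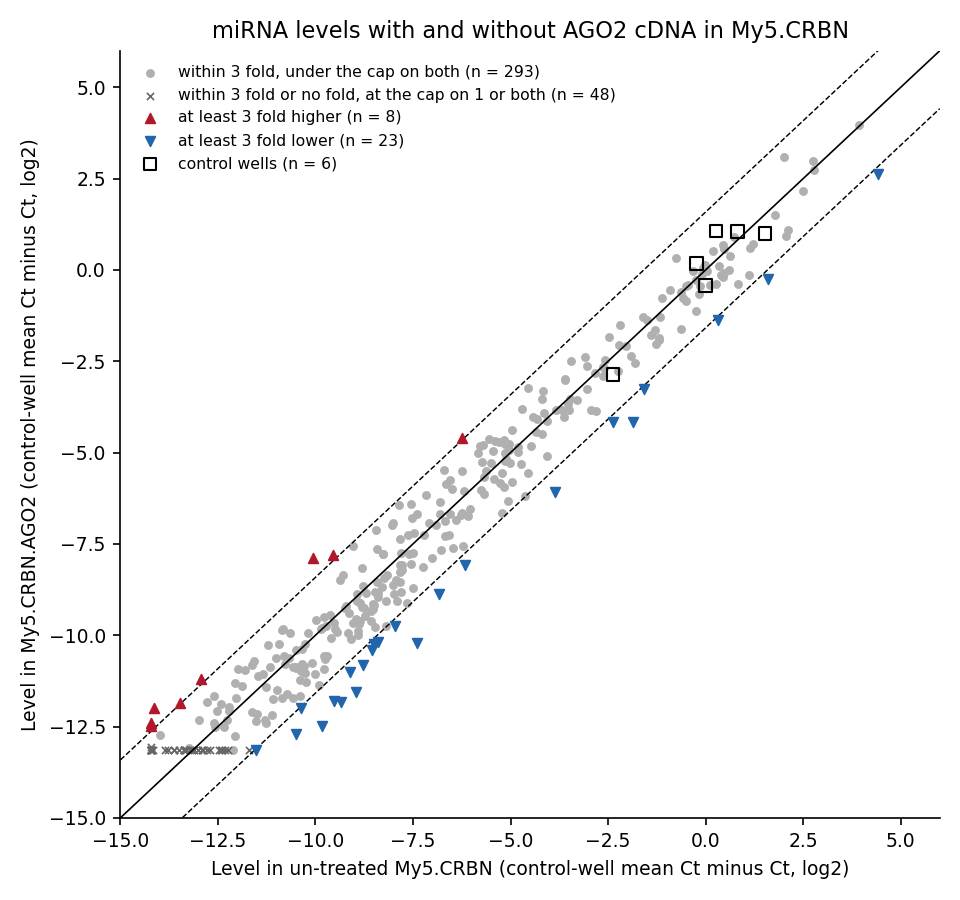
Level of each miRNA in un-treated My5.CRBN (x axis) and in My5.CRBN.AGO2 (y axis), as the control-well mean Ct minus the Ct of the miRNA, on a log2 scale. The solid line marks equal levels and the dashed lines 3 fold; the 23 miRNAs at least 3 fold lower run from the highest levels down to the cap, whereas 7 of the 8 higher ones had a Ct of 28 or more on both arrays.

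The mature sequences of the miRNAs that carry this result are given from RefSeq (GRCh38.p14), whose table held a sequence for 330 of the assays and none for 42. They are written 5′ to 3′ with the seed in capitals, and are shown first for the let-7 family, whose members share 1 seed and yet spread over a wide range of fold changes.
let-7a-5p: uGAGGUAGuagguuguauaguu
let-7b-5p: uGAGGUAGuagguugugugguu
let-7c-5p: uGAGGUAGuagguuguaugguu
let-7d-5p: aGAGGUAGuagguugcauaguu
let-7e-5p: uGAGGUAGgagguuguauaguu
let-7f-5p: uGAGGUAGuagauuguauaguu
let-7g-5p: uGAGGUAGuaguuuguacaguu
let-7i-5p: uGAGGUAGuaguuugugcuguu
miR-98-5p: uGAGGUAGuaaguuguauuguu

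The next set pairs miRNAs that were at least 3 fold lower or higher with the miRNA of the same seed beside them, since in each pair only 1 member passed 3 fold. In order, these are the miR-26, miR-148, miR-135, miR-132 and miR-221 families.
miR-26a-5p: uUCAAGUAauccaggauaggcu
miR-26b-5p: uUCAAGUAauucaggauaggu
miR-148a-3p: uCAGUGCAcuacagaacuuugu
miR-148b-3p: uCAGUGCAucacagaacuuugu
miR-135a-5p: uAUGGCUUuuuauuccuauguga
miR-135b-5p: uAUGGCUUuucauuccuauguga
miR-132-3p: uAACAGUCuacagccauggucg
miR-212-3p: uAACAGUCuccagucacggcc
miR-221-3p: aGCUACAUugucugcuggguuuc
miR-222-3p: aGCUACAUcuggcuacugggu

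The last set holds the 3 lower miRNAs with the largest fold changes, the other arm of 2 of their hairpins, and a higher miRNA that was well under the cap.
miR-708-5p: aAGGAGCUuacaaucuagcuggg
miR-155-3p: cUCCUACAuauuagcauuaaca
miR-155-5p: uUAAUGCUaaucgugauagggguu
miR-33a-3p: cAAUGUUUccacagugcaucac
miR-33a-5p: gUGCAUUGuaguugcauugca
miR-378a-3p: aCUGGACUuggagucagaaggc

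The let-7 family, which represses RAS, MYC and other growth genes and marks differentiated cells, gave 2 of the 23 lower miRNAs, 18.2% of its 11 assays, beside 6.18% of all assays. let-7e-5p had a Ct of 22.64 in un-treated and 26.03 in AGO2 cDNA treated cells, a log2 fold change of -2.31 or 4.97 fold lower. let-7f-5p went from 19.2 to 22.1, a log2 fold change of -1.83 or 3.55 fold lower, and is 1 of the 10 miRNAs with the lowest Ct in un-treated My5.LV. Both are therefore changes of well-detected miRNAs, far from the cap. The next members were let-7a-5p at -1.26, let-7c-5p at -1.05 (Ct 23.6 and 25.7) and let-7i-5p at -0.997 (Ct 21.4 and 23.5). let-7g-5p, let-7d-5p and let-7b-5p were at -0.53, -0.48 and -0.40. let-7d-5p and let-7b-5p lay within the range of the control wells, and let-7g-5p just below its lower end. miR-98-5p, with the same seed, went the other way, with a Ct of 24.2 and 24.4 and a log2 fold change of 0.95. Over the 11 assays of the family, counting the passenger arms of let-7d and let-7g, the median was -0.53 and 10 were below 0. All 11 were under the cap on both arrays, where the median over all 321 such miRNAs was -0.19. The family median stayed below 0 with each of the 11 normalizers, from -0.99 to -0.30. A normalizer shifts all miRNAs alike, so this does not bear on let-7 relative to other miRNAs. The guides of let-7e and let-7f differ from let-7a by 1 of 22 bases each, and from one another by 2, so that how far each assay reads its relatives bears on these values and was not tested.

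The gene of let-7e lies at chr19:51692793-51692814 (plus strand, GRCh38.p14) inside the protein-coding gene SPACA6, and let-7f is made from 2 genes, at chr9:94176353-94176374 on the plus strand and at chrX:53557246-53557267 on the minus strand inside HUWE1. Exon or intron was not analysed here. The neighbours within 10 kb did not share the value of let-7e-5p: miR-99b-5p was at 0.40, miR-125a-5p at -1.06 and miR-125a-3p at 0.12. Beside let-7f-5p on chromosome 9, let-7a-5p was at -1.26 and let-7d-5p at -0.48, and on chromosome X miR-98-5p was at 0.95.

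Of the lower miRNAs, miR-708-5p had the largest fold change. It is encoded within TENM4 (chr11:79402077-79402099, minus strand) and is known to be induced by endoplasmic reticulum stress. Its Ct was 28.2 in un-treated and 32.1 in AGO2 cDNA treated cells, a log2 fold change of -2.82 or 7.08 fold lower. Its passenger arm miR-708-3p had a Ct of 33.7 in un-treated cells and was at the cap with AGO2 cDNA. miR-155-3p comes from the hairpin of miR-155, a miRNA of activated B cells, at chr21:25574022-25574043 (plus strand). It went from a Ct of 30.6 to 34.3, a log2 fold change of -2.63. miR-155-5p from the same hairpin had a Ct of 31.3 and 32.7 and a log2 fold change of -0.37. miR-33a-3p lies within SREBF2 (chr22:41900989-41901010, plus strand), the gene of a regulator of cholesterol synthesis. It went from a Ct of 29.8 to 33.4, a log2 fold change of -2.59, while miR-33a-5p had 24.6 and 25.7 and a log2 fold change of 0.02. In both hairpins the arms thus differed by more than the fold threshold.

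Among lower miRNAs with high levels, miR-720 had a Ct of 16.4 in un-treated and 19.2 in AGO2 cDNA treated cells, a log2 fold change of -1.78. This RNA is now taken to be a tRNA fragment and not a miRNA. miR-26b-5p, which lies within CTDSP1 on chromosome 2, went from 20.5 to 23.2, a log2 fold change of -1.69. Its seed mate miR-26a-5p had 20.2 and 21.5 and a log2 fold change of -0.26. miR-148b-3p, within COPZ1 on chromosome 12, went from 22.4 to 25.1, a log2 fold change of -1.70. Its seed mates miR-148a-3p and miR-152-3p were at -0.64 and 0.16, so that neither followed it to 3 fold. miR-135b-5p, of a family known to repress the tumour suppressor APC, went from 23.16 to 26.03, a log2 fold change of -1.79, and miR-135a-5p with the same seed from 25.9 to 28.2, at -1.25. miR-212-3p went from 27.6 to 30.7, a log2 fold change of -2.06, while miR-132-3p, which shares its seed and lies within 10 kb of it on chromosome 17, had 28.3 on both arrays and a log2 fold change of 1.15. Both are known for their response to the factor CREB, and they went opposite ways here.

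The imprinted DLK1-DIO3 region on chromosome 14, the largest of the groups listed here, gave 5 of the 23 lower miRNAs and none of the higher ones, which is 17.2% of its 29 assays lower, beside 6.18% of all assays. miR-370-3p went from a Ct of 24.6 to 27.9, a log2 fold change of -2.23, and lies at chr14:100911186-100911207 (plus strand) within the non-coding gene MEG8. miR-432-5p (29.6 to 32.7, -2.03) and miR-431-5p (26.9 to 29.9, -1.91) lie within 10 kb of one another and opposite to the strand of RTL1, at chr14:100884496-100884518 and chr14:100881026-100881046. miR-381-3p went from 29.3 to 32.3, a log2 fold change of -1.87. miR-485-5p had a Ct of 32.3 in un-treated cells and was at the cap with AGO2 cDNA, so that it was at least 3.05 fold lower. Of the 29 assays of the region, 23 were under the cap on both arrays, and of these 19 were below 0 with a median of -0.63, beside -0.19 over all miRNAs under the cap on both arrays. Several of these assays had a Ct of 28 to 30 in un-treated My5.LV. The 70 miRNAs of that level had a median of -0.47, with 10 at least 3 fold lower, and the part of level was not tested. The median of the region lay between -1.09 and -0.39 over the normalizers. The highest value in the region was that of miR-323b-5p at 1.47 (Ct 29.8 and 29.4), just under 3 fold higher.

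Several of the lower miRNAs are known from other tissues and had low levels here. miR-206 of skeletal muscle went from a Ct of 29.9 to 32.9 (-1.91), and miR-133b, which lies beside it on chromosome 6, had 24.96 and 25.17 and a log2 fold change of 0.86. The neuronal miR-124-3p went from 28.8 to 31.6 (-1.77). The epithelial miR-205-5p went from 30.3 to 33.7 (-2.28). miR-302c-3p of pluripotent stem cells went from 29.2 to 32.1 (-1.79), and its neighbour miR-302a-3p from 32.9 to 34.6 (-0.69). miR-10b-5p, from the HOXD gene cluster, went from 30.1 to 33.7 (-2.47), and its close relative miR-10a-5p from 29.0 to 31.6 (-1.55), just short of 3 fold. The others were miR-581 (31.3 to 34.6, -2.21), miR-643 (29.3 to 32.1, -1.76) and miR-567 (31.2 to 33.9, -1.62). Of the 23 lower miRNAs, 9 had a Ct under 28 in un-treated cells, 14 had 28 or more on both arrays, and 22 were under the cap on both.

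No miRNA with a Ct over 32.3 in un-treated cells could be counted as lower, which bears on the levels of the higher and lower miRNAs. The 8 higher miRNAs had a median Ct of 34.0 in un-treated cells, against 29.2 for the lower ones. The best detected was miR-378a-3p, encoded within PPARGC1B (chr5:149732867-149732888, plus strand) and known from energy metabolism, which had a Ct of 27.04 and 26.46 and a log2 fold change of 1.65. The other arm of its hairpin, miR-378a-5p, had 26.6 and 26.7 and a log2 fold change of 0.96. miR-221-3p, which represses the cell cycle inhibitor p27, went from 30.9 to 29.7 and had the largest fold change of the higher miRNAs, 2.19 on the log2 scale or 4.57 fold higher. miR-222-3p, its seed mate and neighbour on chromosome X, had 29.61 and 30.04 and a log2 fold change of 0.64. miR-92a-1-5p, the passenger strand of miR-92a in the miR-17 cluster, had 30.3 and 29.7 and a log2 fold change of 1.75, and the guide miR-92a-3p had 20.07 and 20.96 and 0.19.

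The other 5 higher miRNAs had a Ct above 32.95 on both arrays. That is the Ct of the lower of the 2 cel-miR-39 wells in un-treated cells, which assay a worm miRNA that human cells do not make; the other of these wells had 34.8. miR-338-3p, within AATK, had a Ct of 34.9 and 33.8 (2.17), miR-218-5p 33.7 and 33.1 (1.73), and miR-363-5p 34.3 and 33.7 (1.62). miR-517a-3p of the placental cluster on chromosome 19 and miR-217, known from the pancreas, were at the cap in un-treated cells and had a Ct of 34.3 each with AGO2 cDNA, which puts them at least 3.47 and 3.31 fold higher. With AGO2 cDNA the 2 cel-miR-39 wells had a Ct of 34.6 and 38.8 before the cap. Whether cel-miR-39 was added to the RNA is not given in the sources used here, so these wells may not mark the limit of detection.

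Around the threshold the values ran on without a gap. Just inside 3 fold were miR-363-5p at 1.62 and miR-567 at -1.62 among miRNAs under the cap on both arrays. Just outside were miR-323b-5p at 1.47, miR-181c-3p at 1.41 (Ct 28.6 and 28.3) and miR-342-3p at 1.33 (25.3 and 25.1) on the higher side. On the lower side these were miR-10a-5p at -1.55, miR-421 at -1.55 (25.42 and 28.05) and miR-376a-3p at -1.47 (30.7 and 33.2). Of the 23 lower miRNAs, 14 stayed at least 3 fold lower with each of the 11 normalizers, among them let-7e-5p, let-7f-5p, miR-708-5p, miR-155-3p and miR-370-3p, and of the 8 higher ones miR-221-3p and miR-338-3p did so.

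Set against all 12 arrays, both sides of the comparison contributed to the 31 differences. The My5.CRBN.AGO2 array had the lowest normalized level of the 12 for 9 of the 23 lower miRNAs, and its median rank was 11, where 1 is the highest level. The un-treated My5.CRBN array had the highest level of the 12 for 4 of them, miR-708-5p, miR-370-3p, miR-206 and miR-720, with a median rank of 3. For the 8 higher miRNAs the AGO2 cDNA array was the highest of the 12 for 4, and the un-treated array had a median rank of 9.5. Among these 4, miR-217 and miR-517a-3p had 3 arrays at the cap and miR-363-5p had 2. An array at the cap ranks below the AGO2 cDNA array in any case, since the latter has the highest control-well Ct. Since the miRNAs were picked for the difference between the AGO2 cDNA and un-treated arrays, extreme ranks follow in part from that choice. Over the 314 miRNAs under the cap on all arrays, the AGO2 cDNA array was the lowest of the 12 for 31 and the highest for 19.

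**Figure D2:**
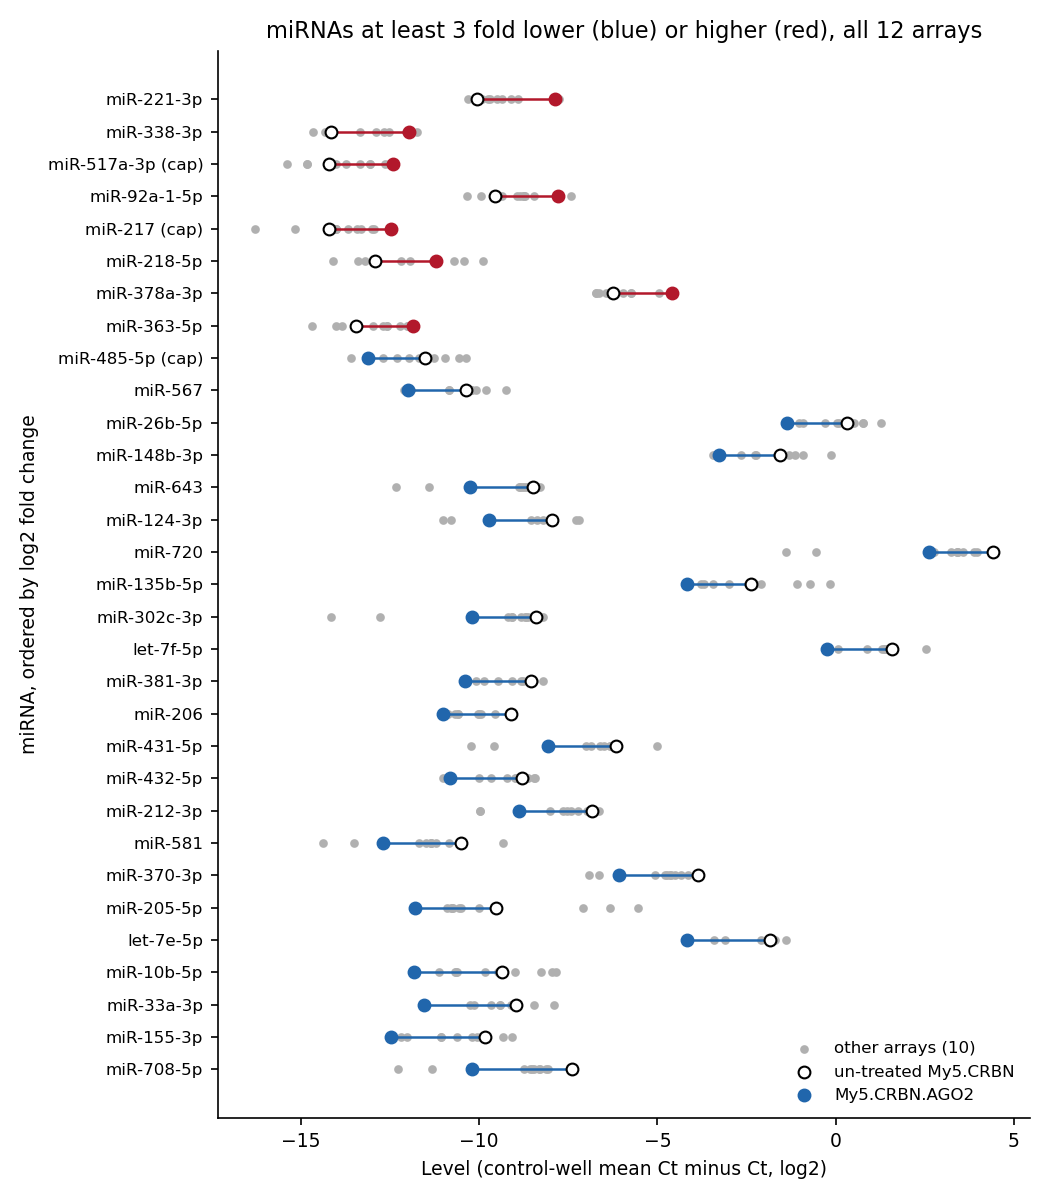
Level (control-well mean Ct minus Ct, log2, x axis) of the 31 miRNAs at least 3 fold lower (blue) or higher (red) in My5.CRBN.AGO2 (filled) than in un-treated My5.CRBN (open), ordered by fold change, with the other 10 arrays in grey. Names with (cap) had a Ct of 35 on 1 of the arrays compared; the filled point is the lowest of the 12 for 9 of the 23 lower miRNAs.

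Both arms were assayed for 86 hairpins, and in 68 of them both arms were under the cap on both arrays. The minor arm, taken as the arm with the higher Ct in un-treated My5.LV, lay above the major arm in 50 of the 68 (73.5%). These 68 were kept only because both arms stayed under the cap, also on the AGO2 cDNA array with its many miRNAs at the cap. Minor arms that fell to the cap there, such as miR-708-3p, are left out. The share therefore holds for these 68 alone and does not tell the direction of minor arms as a class. The median log2 fold change was -0.21 for major and 0.17 for minor arms, and the median difference within a hairpin was 0.38. The difference does not depend on the normalizer, whereas the signs of both medians do. With the global mean the medians were 0.03 and 0.41, and with the median of the control wells -0.66 and -0.28. Major arms had a median Ct of 24.3 in My5.LV and minor arms 28.8, so that arm and level moved together, and the part of each was not tested.

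The arms of 8 hairpins differed by at least 3 fold. In 7 of them the minor arm was the higher one, as in miR-338 (miR-338-5p -0.43, miR-338-3p 2.17), miR-181c (miR-181c-5p -0.74, miR-181c-3p 1.41), miR-195 (miR-195-5p -1.14, miR-195-3p 0.50), miR-29a (miR-29a-3p -0.64, miR-29a-5p 1.01), miR-10a (miR-10a-5p -1.55, miR-10a-3p 0.93), miR-205 (miR-205-5p -2.28, miR-205-3p 0.25) and miR-155, whose arm of lower Ct in My5.LV was miR-155-3p. Only miR-33a ran the other way. For miR-195, miR-29a and miR-181c the major arm had a Ct of 18.7 to 24.4 on these arrays and the minor arm 27.3 to 28.6, all far under the cap.

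**Figure D3:**
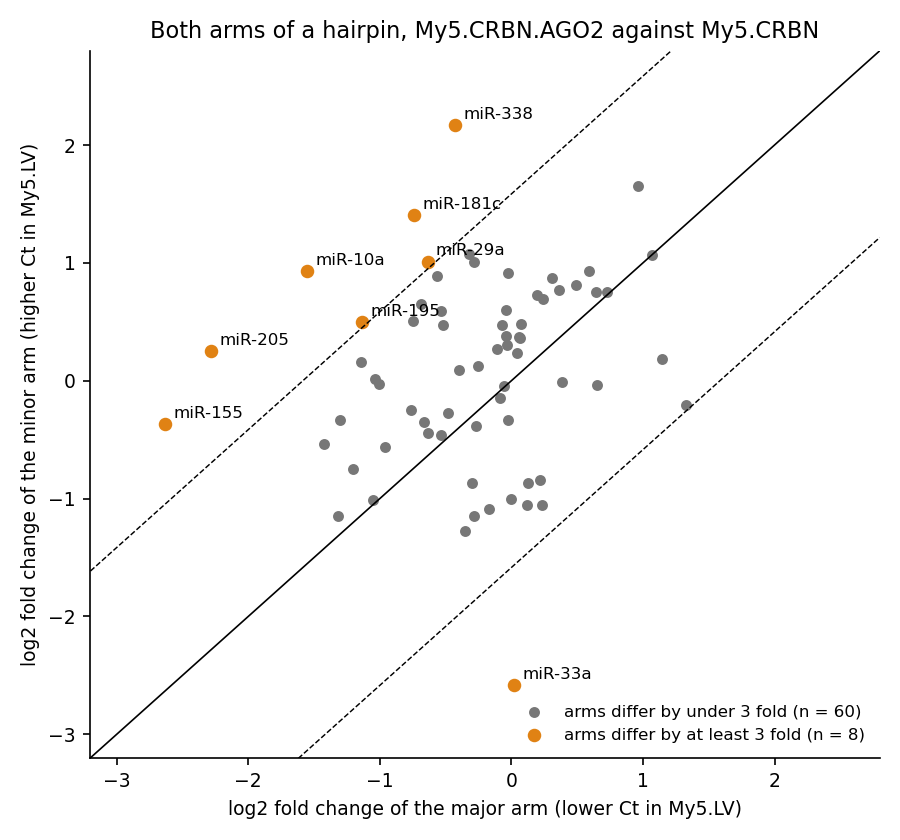
Log2 fold change of the major arm (x axis) and the minor arm (y axis) of the 68 hairpins with both arms under the cap on both arrays. The solid line marks equal fold changes and the dashed lines 3 fold between the arms; 50 points lie above the solid line, and of the 8 hairpins named, miR-33a alone lies below it.

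The miRNAs best detected in un-treated My5.LV, with a Ct under 26 (n = 127), had a median of -0.14, with 0 higher and 7 lower. Those between 28 and 30 (n = 70) had the lowest median, -0.47, with 1 higher and 10 lower. Those of 32 and over (n = 63) had a median of 0.95, with 4 higher and 0 lower. This class holds miRNAs at the cap on both arrays, to each of which the control wells give 1.07. The 14 of the class under the cap on both arrays had a median of 0.94, with 2 below 0, 2 higher and 0 lower. They were kept only because they stayed under the cap with AGO2 cDNA. A miRNA with a Ct over 32.3 in un-treated My5.CRBN could not be counted as lower, so neither median tells the direction of this class. By the first base, which sits in a pocket of argonaute that is known to favour U and A, miRNAs with U (n = 135) had a median of -0.28, beside -0.08 for A (n = 76), -0.03 for C (n = 58) and -0.07 for G (n = 22), among the 291 that had a sequence and were under the cap on both arrays. Of the 20 lower miRNAs with a sequence 13 began with U, and of all 330 assays with a sequence 144 did. Among miRNAs with a Ct under 28 in My5.LV, U (n = 86) was at -0.28, A (n = 37) at -0.23, C (n = 32) at 0.0092 and G (n = 8) at 0.27.

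By family, no group of related miRNAs lay as a whole beyond 3 fold in either direction. The groups with the lowest medians were the embryonic and placental clusters at -0.69 (the 7 of 17 assays under the cap on both arrays; over all 17 the median was 0.30), the DLK1-DIO3 region at -0.63, miR-200, miR-141 and miR-429 at -0.56 (7 assays), let-7 at -0.53 and miR-29, known to repress collagens and MCL1, at -0.50 (5 assays). The highest was the group of miR-21, miR-221, miR-222 and miR-181 at 0.64 (11 assays), which held both directions: miR-21-5p, a miRNA raised in many cancers, had a Ct of 18.8 on both arrays and so a log2 fold change of 1.07, the shift of the control wells, while miR-181a-5p, miR-181b-5p and miR-181c-5p were at -0.76, -0.72 and -0.74. The growth-promoting miR-17, miR-20, miR-93 and miR-106 were at -0.04, with miR-20a-5p at -0.04 (Ct 18.03 and 19.14). None of the 10 assays was beyond 3 fold, beside 2.15% of all assays higher and 6.18% lower. miR-15, miR-16, miR-195 and miR-497, which repress BCL2 and cyclins, were at 0.13, and the miR-30 family at 0.08, with values from -0.23 to 0.48. The medians of the last 3 groups changed sign with some of the normalizers.

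**Figure D4:**
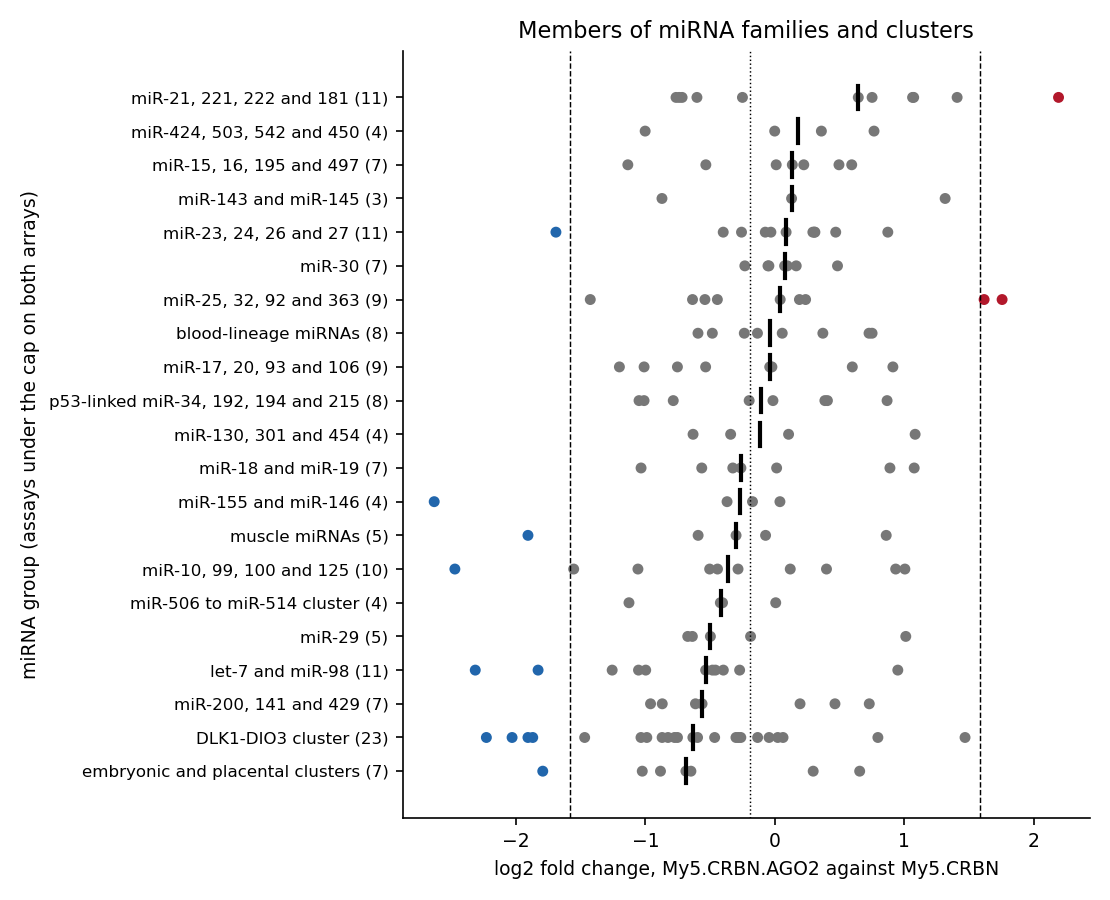
Log2 fold change (x axis) of the assays of 21 miRNA families and clusters that were under the cap on both arrays; the number of such assays is given in brackets. Points are miRNAs, blue if at least 3 fold lower and red if at least 3 fold higher, black bars are group medians, the dotted line is the median of all 321 miRNAs under the cap on both arrays (-0.19), and the dashed lines are 3 fold; 4 of the 23 points of the DLK1-DIO3 region and 2 of the 11 of let-7 are blue.

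miR-451a, whose precursor is cut by AGO2 and not by Dicer, did not stand out. It had a Ct of 30.4 in un-treated and 31.9 in AGO2 cDNA treated cells, a log2 fold change of -0.48, within the spread of the control wells. miR-486-5p, known with it from red blood cells, had 27.3 and 28.5 and a log2 fold change of -0.13, and miR-486-3p reached the cap with AGO2 cDNA. Of the 12 assays of the blood lineage group, none was beyond 3 fold, beside 2.15% of all assays higher and 6.18% lower. The 4 at the cap on 1 or both arrays could not be counted as lower. miR-155 was listed in another group, and its arm miR-155-3p was at least 3 fold lower. The 8 blood lineage assays under the cap on both arrays had values from -0.59 to 0.75 and a median of -0.04. Among them, miR-142-3p, with the lowest Ct of all in My5.LV, had 16.9 and 17.9 (0.06). miR-150-5p had 20.2 and 21.9 (-0.59), miR-223-3p 28.6 and 29.9 (-0.24), and the arms miR-126-3p and miR-126-5p were at 0.73 and 0.75. Of markers of other tissues, the liver's miR-122-5p was at the cap on both arrays, the 6 epithelial miRNAs had a Ct of 26.3 to 31.2 in un-treated cells, and miR-1, known from muscle, had a Ct of 20.9 and 22.3. Of the 10 miRNAs with the lowest Ct in My5.LV, 7 were below 0, with a median of -0.29 and a range from -1.83 for let-7f-5p to 1.07 for miR-21-5p.

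AGO2 cDNA was compared with none in 3 more pairs of arrays, none of which is part of the pair above. In My5.LV, 22 miRNAs were at least 3 fold higher (5.91%) and 3 were lower (0.806%). In My5.CRBN with 10 μM lenalidomide for 72 hours, 4 were higher (1.08%) and 26 lower (6.99%), and in My5.LV with lenalidomide 4 were higher (1.08%) and 16 lower (4.3%). Across miRNAs under the cap on all 4 arrays concerned, the fold changes of My5.CRBN ran weakly together with those of My5.LV (Pearson r = 0.38, Spearman rho = 0.38, 320 miRNAs), of My5.CRBN with lenalidomide (0.23 and 0.27, 320 miRNAs) and of My5.LV with lenalidomide (0.25 and 0.31, 321 miRNAs). These are descriptions across miRNAs, which are not independent and share assay and level between the pairs.

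The 23 lower miRNAs kept their sign in 17 of 23 cases in My5.LV, where 40.1% of all miRNAs with a value were below 0, in 20 with CRBN and lenalidomide (70.4% of all), and in 15 in My5.LV with lenalidomide (57.1% of all). Their size did not carry over: none was again at least 3 fold lower in My5.LV, and 1 was in each pair with lenalidomide, miR-135b-5p in My5.CRBN and miR-567 in My5.LV. 10 of the 23 were below 0 in all 4 pairs, as were 22.2% of all 360 miRNAs with a value in the 3 other pairs taken alone. miR-135b-5p was the most even of them, with -1.79, -1.43, -1.73 and -1.34 in My5.CRBN, My5.LV, My5.CRBN with lenalidomide and My5.LV with lenalidomide, and was the single miRNA at least 2 fold lower in all 4. miR-10b-5p had -2.47, -0.83, -1.05 and -1.15, and miR-148b-3p -1.70, -1.11, -1.003 and -0.940. By contrast, let-7e-5p had -2.31, 0.15, 0.06 and -0.15, let-7f-5p -1.83, -0.01, 0.05 and 0.07, and miR-720 -1.78, 0.17, -0.53 and 0.17. The values of both let-7 miRNAs in the 3 other pairs were thus within the spread of those pairs' control wells, and so were those of miR-720. miR-720 was below 0 in both My5.CRBN pairs, but so were 70.4% of all miRNAs with a value in the pair with lenalidomide.

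Of the 8 higher miRNAs, 7 were above 0 in My5.LV (59.9% of all miRNAs with a value), where miR-221-3p at 2.34, miR-517a-3p at 2.32 and miR-338-3p at 1.60 were again at least 3 fold higher. The value of miR-517a-3p is a bound there too: it was at the cap in un-treated My5.LV and had a Ct of 33.7 with AGO2 cDNA. miR-338-3p had a Ct of 33.5 and 32.9 in the My5.LV pair, so it was also near the cap. With lenalidomide, 3 of 8 in My5.CRBN (29.6% of all) and 4 of 8 in My5.LV (42.9% of all) were above 0, and none was at least 3 fold higher. miR-378a-3p had 1.65, 1.41, 0.20 and 0.98 in the 4 pairs, in the order given above, and miR-221-3p had 2.19, 2.34, 0.27 and -0.40. miR-551b-3p, not among the 8, was the single miRNA at least 2 fold higher in all 4 pairs, with 1.09, 3.02, 1.05 and 1.47; its Ct was 28.8 on both arrays of the My5.CRBN pair. miR-338-3p had -2.61 in My5.CRBN with lenalidomide, where it met the cap with AGO2 cDNA.

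**Figure D5:**
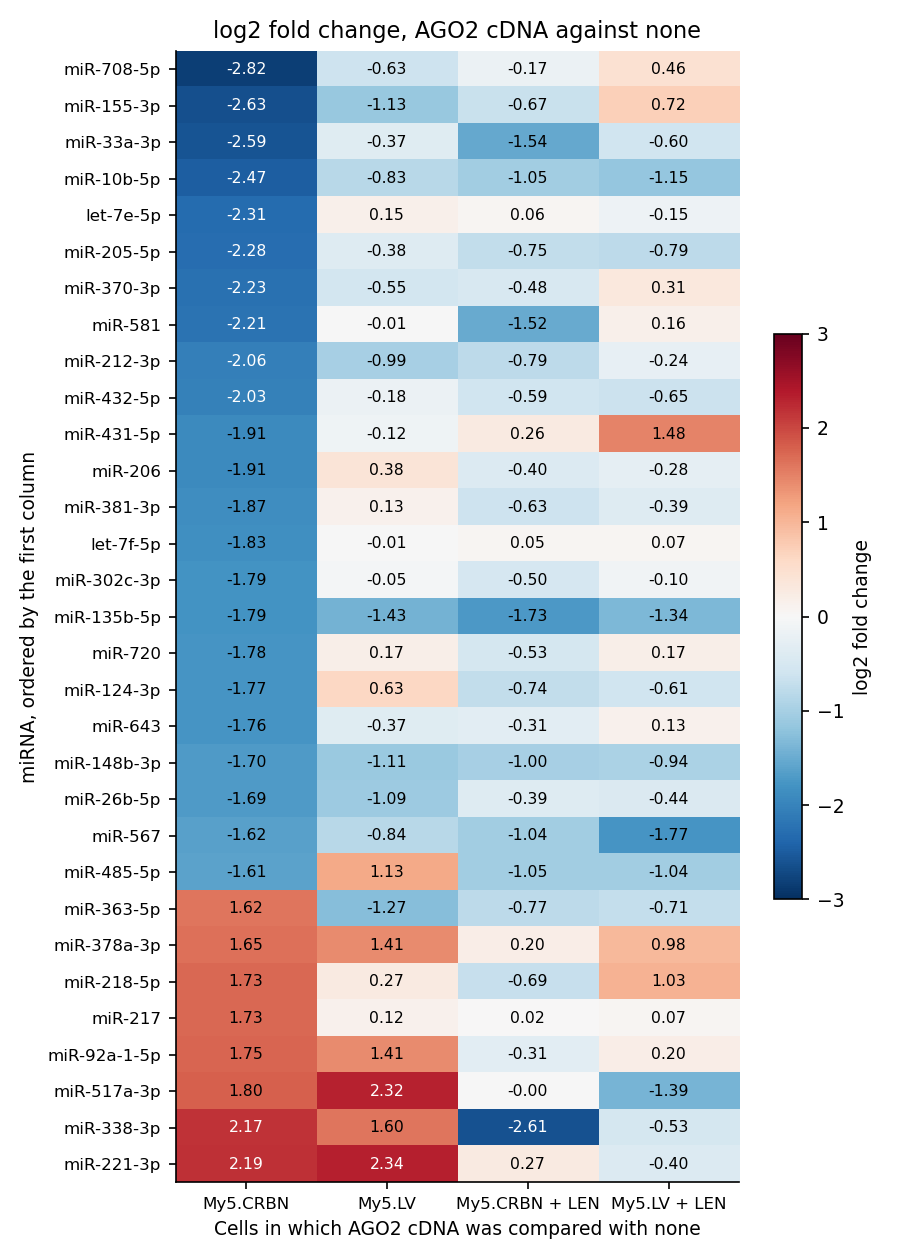
Log2 fold change of the 31 miRNAs with AGO2 cDNA against none in 4 pairs of arrays that share no array (columns), with lenalidomide (LEN) in the last 2. Rows are ordered by the first column, which chose the miRNAs; in the other columns the values are mostly smaller, and the row of miR-135b-5p is below -1.3 in all 4.

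The array of My5.CRBN cells treated with AGO2-sh72, an shRNA against AGO2, was compared with the same un-treated array, so its values are given only beside the others. let-7e-5p was at -2.31 with AGO2 cDNA and at -1.25 with AGO2-sh72, let-7f-5p at -1.83 and -1.53, and miR-148b-3p at -1.70 and -1.81. miR-708-5p was at -2.82 and -0.90, miR-155-3p at -2.63 and -1.23, and miR-720 at -1.78 and -1.66. For miR-221-3p the values were 2.19 and 1.16, and for miR-378a-3p 1.65 and -0.38. The let-7 family had a median of -0.53 with AGO2 cDNA and of -1.42 with AGO2-sh72. The DLK1-DIO3 region had -0.63 and -0.10. Since 1 un-treated array serves both, an un-treated value that is off would move both columns the same way.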

How the data were processed

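Total RNA was isolated with the miRNeasy Mini kit, reverse transcribed with the miScript II RT kit and measured on miScript miRNA PCR Arrays. The table deposited by the authors gives raw threshold cycles (Ct) per well; their deposited table of fold changes was not used. From the Ct values, wells over 35 or undetermined were set to 35, the mean of 6 small-RNA control wells was subtracted, and differences between arrays were taken as log2 fold changes, with 3 fold as threshold. miRNAs at this cap on both sides of a pair were never counted. There is 1 array per condition, so no test was made. The table gives 1 Ct per well and array, and whether it is 1 run or an average is not given in the sources used here. The method was checked on simulated data, with changes well past 3 fold in miRNAs that started well under the cap. The simulated wells varied less than the control wells did here, and changes near 3 fold or near the cap were not covered. The comparison, the family lists, the markers and the alternatives were chosen with earlier results of these data known. miRNAs were named if at least 3 fold higher or lower or just outside, if they were miR-451a, an arm of miR-486, an arm of a hairpin whose arms differed by 3 fold, 1 of up to 3 largest changes of a family, 1 of the 10 lowest Ct in My5.LV, or a cell type marker. Seed mates, other arms, other family members, neighbours within 10 kb and miR-551b-3p were named after their values were seen. Python 3.11.15, NumPy 2.4.6, pandas 2.3.3 and Matplotlib 3.10.9 were used. Sequences, positions and host genes are from RefSeq (GRCh38.p14).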

Additional observations from a re-analysis of the deposited data

Results flagged for a closer look

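With AGO2 cDNA the median log2 fold change over all miRNAs was -0.11 in My5.CRBN, with 8 miRNAs at least 3 fold higher and 23 lower, and 0.17 in My5.LV, with 22 higher and 3 lower, so that the balance of the counts ran opposite ways in the 2 cell lines. With 1 array per condition the difference was not tested. Both medians are within the SD of single control wells (0.56 and 0.41), a spread that does not measure the uncertainty of a median over all miRNAs. miR-338-3p was 2.17 with AGO2 cDNA in My5.CRBN and -2.61 in My5.CRBN with lenalidomide, the single miRNA of the 31 that passed 3 fold in opposite directions, and this difference was not tested either. Its Ct was 34.9 and 33.8 in the first pair, and 31.1 and at the cap in the second.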

How the results depend on the processing

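The 8 miRNAs at least 3 fold higher became 2 with RNU6 alone, 2 with the median of the control wells, 3 with a cap of 32 and 3 among the 232 that had a Ct under 30 on either array. Of the last 3, miR-221-3p and miR-92a-1-5p were under Ct 30 only on the AGO2 cDNA array, where they are high. The 23 lower miRNAs became 14 with the global mean, 41 with the median of the control wells and 14 with a cap of 32. The 14 lower miRNAs under the global mean and under the cap of 32 were all among the 23, as were 23 of the 41. Under the cap of 32, miR-567 changed sign to 0.24 and miR-581 to 0.37, since both then met the cap with AGO2 cDNA while the control wells kept their shift. Leaving out each control well in turn gave 6 to 9 higher and 19 to 25 lower miRNAs, and the reverse transcription controls gave 6 and 25. The median over all miRNAs moved between -0.57 and 0.13, by less than the SD of the control wells, but changed sign with the global mean, without SNORD95 and with the cap of 32. Each normalizer moved all miRNAs by 1 shared amount, from -0.45 with the median of the control wells to 0.24 with the global mean. These shifts are smaller than that SD, and the 109 named miRNAs with a value are not separate checks of this. Requiring a Ct under the lower cel-miR-39 well of the same array on at least 1 array, an alternative chosen after seeing the data, left 8 and 23. That filter could remove none of them, so it is no check. A miRNA could be counted as lower only up to an un-treated Ct of 32.34, under the 32.95 of that well. It could be counted as higher only up to a Ct of 34.49 with AGO2 cDNA, under the 34.59 of the well there. No paired analysis was possible because there is 1 array per condition. The levels of miRNAs near the cap are bounds.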
